A study of Mus musculus with 3 samples.

Results

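The DNA repair genes described here are the 71 of the 17285 genes in the deposited table whose symbols match a fixed pattern of repair gene names, such as Fanca to Fancm, Rad followed by a digit, Xrcc1 to Xrcc6, Ercc1 to Ercc8, Parp1 to Parp3, Brca1, Brca2, Atm, Atr and Prkdc. The pattern reads names only and uses no measured value. By their textbook roles 13 members belong to nucleotide excision repair, 9 to mismatch repair, 5 to end joining, 13 to homologous recombination and 10 to the Fanconi pathway of crosslink repair. A further 7 act in base excision and single-strand break repair, 7 in damage signalling and tolerance, and 1, Mgmt, in direct reversal. The other 6 (Rad21, Rad21l, Rad54l2, Ercc6l, Ercc6l2 and Fancd2os) match the pattern but were not assigned to a role group. Keeping them apart does not mean that they have no part in repair.

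The samples were 3 RNA-seq libraries, labelled Mock, of B16 cells, a mouse melanoma line. All 3 carried a stably expressed empty vector, and no group without it or with another insert was analysed here. The series is about the sialyltransferase ST8Sia5, and the labels give no treatment, time or DNA-damaging agent. The cells are 1 stable line, the extraction text also speaks of organs, and separate cultures are not mentioned for the 3 samples. Every p-value below therefore measures a spread between libraries that may be technical.

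Cells repair DNA by several routes that differ in the lesion they recognise. Nucleotide excision repair cuts out a short patch around a bulky lesion such as the photoproducts that ultraviolet light makes in skin, and mismatch repair corrects replication errors. Breaks through both strands are rejoined directly by end joining or copied from the sister chromatid by homologous recombination. The Fanconi proteins unhook crosslinks between the strands, and base excision repair removes small damaged bases.

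The libraries held 9328096, 9456527 and 9438905 estimated counts in replicates 1, 2 and 3, and levels are given as counts per 1000000 of these totals (CPM) after TMM scaling, or as CPM per kilobase of merged exons (CPM per kb) where genes are compared with each other. At this depth a gene at 1 CPM collects 28.2 reads over the 3 libraries. Of the pigment cell markers, 10 of 10 were above 1 CPM while 0 of 6 leukocyte, 0 of 5 fibroblast and 0 of 5 endothelial markers were, with Lyz2 unresolved at 17 reads. Read intervals and limits cover counting error only.

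Most of the repair genes were transcribed in these cells. Of the 70 members with a count, 65 were called above 1 CPM (edgeR quasi-likelihood test, adjusted p under 0.05), against 74.3% of all genes with a count. Their levels ran from 5.67 ± 0.354 CPM for Rad9b to 808 ± 10.03 CPM for Ddb1 (SD, n = 3). The largest adjusted p of any of the 65 under any setting tried was 0.00221, for Pms2. In bulk RNA a low level in all cells and a higher level in a few cells cannot be told apart.

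Only 6 members were not called above 1 CPM, and 4 of them were called below it, against 20.2% of all genes with a count. Ddb2, the lesion-binding partner of Ddb1 in nucleotide excision repair, had 1, 3 and 0 reads (0.142 ± 0.162 CPM, adjusted p = 0.00299 by edgeR). Msh4, which acts in meiotic crossing over, had 1, 0 and 0 reads (adjusted p = 6.10e-04 by edgeR). Rad21l, a meiotic cohesin subunit, had 0, 1 and 1 reads, and Fancd2os, a gene that overlaps Fancd2 on the other strand, had 0, 0 and 1 (edgeR adjusted p = 7.24e-04 and 6.10e-04). Msh5, the meiotic partner of Msh4, had 8, 15 and 1 reads and was not separated from 1 CPM.

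Mgmt, which removes alkyl groups from guanine and protects cells from alkylating drugs, had 0 reads in each of the 3 libraries. With 0 reads its level could be up to 0.106 CPM (3 counts over the 3 libraries). These 6 genes lie far under the others, with no member between 0.850 CPM (Msh5) and 5.67 CPM (Rad9b). The call for Ddb2 was lost without replicate 1 (edgeR adjusted p = 0.0855, and from 3.94e-08 to 0.354 over all settings tried), and the Wald test of DESeq2 called 0 of the 14408 genes below this level, and 0 had an unadjusted p under 0.05 there.

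**Figure D1:**
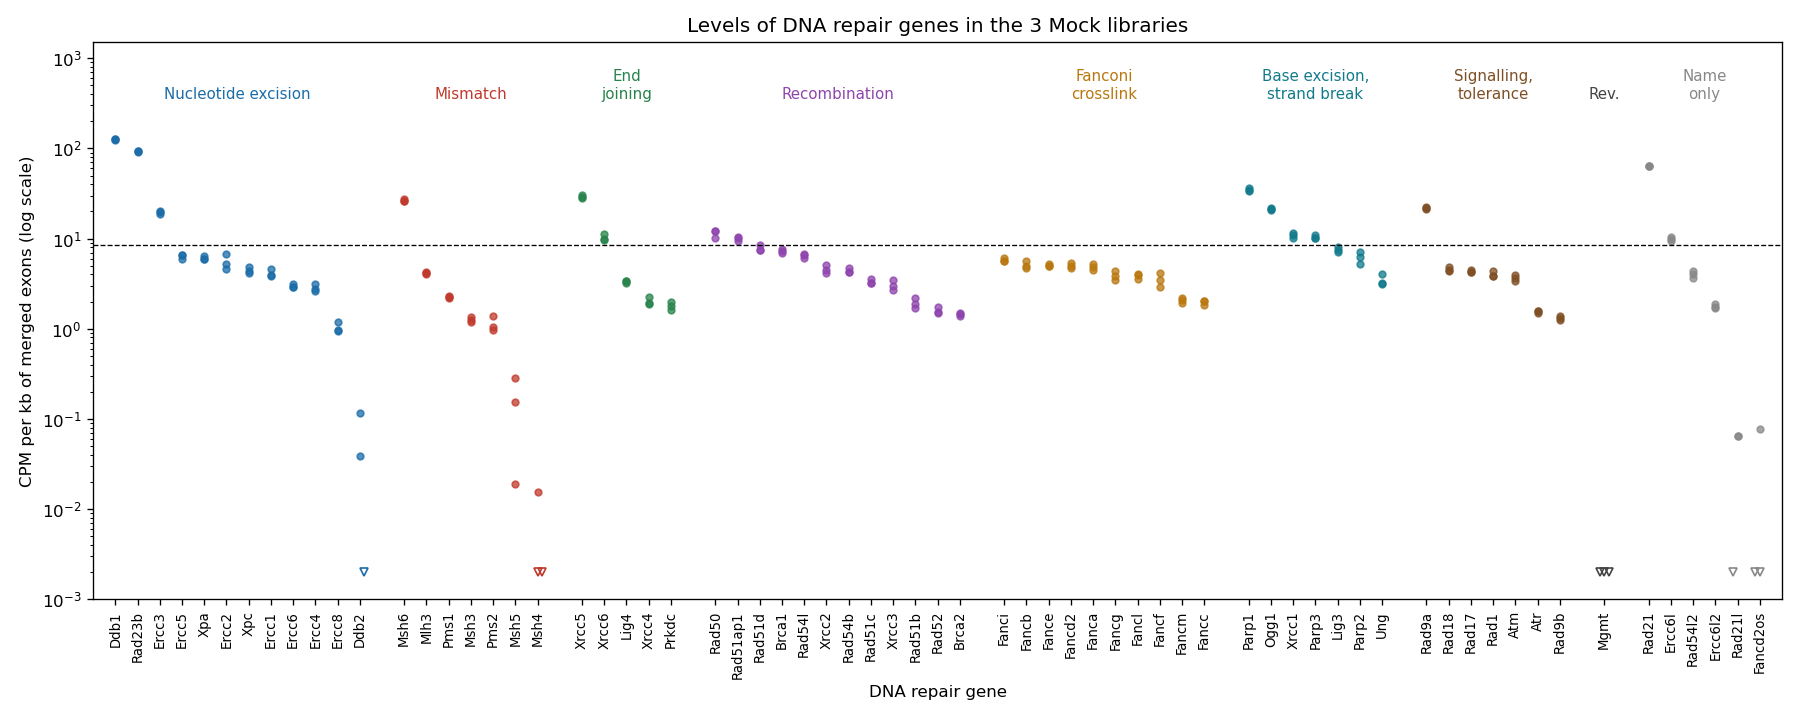
Level of 67 of the 71 repair genes in CPM per kb of merged exons (log scale), 1 point per library (n = 3), grouped by role and ordered by mean. The dashed line is the median of all genes averaging at least 10 counts, 8.42 CPM per kb, and open triangles mark libraries with no read; Ddb2, Msh4, Msh5, Mgmt, Rad21l and Fancd2os stand apart at the bottom.

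Set against the median gene, most repair genes were modest. Relative to the median per kb of genes averaging at least 10 counts in the same library, 17 members were called higher and 52 lower (limma, adjusted p under 0.05), and Rad51d was not separated from it. These are 24.3% and 74.3% of the 70 members with a count. Over all 14097 genes with a count and a length the shares were 36.7% higher and 59.6% lower. Among genes averaging at least 10 counts they were 47.6% higher and 47.6% lower, and of the 65 such members 17 were higher and 47 lower. The median of the 71 members was 4.36 ± 0.0141 CPM per kb, beside 8.42 ± 0.0291 for all genes averaging at least 10 counts and 4.91 ± 0.0196 for all genes with a count. With the latter, lower reference the split was 26 higher and 36 lower.

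Among the 17 higher members were Ddb1, Rad23b and Ercc3 of nucleotide excision repair, Msh6 of mismatch repair, Xrcc5 and Xrcc6 of end joining, Rad50 and Rad51ap1 of recombination, Parp1, Ogg1, Xrcc1 and Parp3 of base excision and single-strand break repair, the checkpoint clamp subunit Rad9a, and Rad21 and Ercc6l. None of the 10 Fanconi genes was among them. The lower call was lost for Lig3 without replicate 2 or 3 and for Parp2 without replicate 2. With the longest annotated transcript as length, Ercc6l was lower than the median (-0.21, log2), and Rad50 lost its higher call (0.05, limma adjusted p = 0.331). On that length the lower calls of Rad17 and Rad54l were lost too, and Rad51d was called lower (-0.49).

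Many repair genes start close to a neighbour on the opposite strand. In 21 of the 71 members (29.6%) another gene started within 1 kb on the opposite strand and ran the other way, an arrangement called head to head, against 8.48% of the 16584 protein-coding genes of the table by the GENCODE M21 annotation. Among genes averaging at least 10 counts the shares were 32.3% of 65 members and 11.5% of 10814 protein-coding genes. This is a description of position, with no test.

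The stretch between paired start sites was read only where it fits within a promoter window. Longer gaps, such as the 977 bases of Rad51b, could not enter, so the lengths given are short by selection. Annotated gene ends were also cut off, which left 57 of the 135 bases for Rad9b. RefSeq promoter windows on GRCm38.p6 (250 bases before to 50 after a start) matched 54 of the 71 members, and 7 stretches that lie between the starts and outside annotated exons are given 5′ to 3′ on the strand of the repair gene, with CCAAT boxes, on either strand (CCAAT or ATTGG), in capitals. They were chosen after their values were seen, and the 2 genes that flank each differ in level, in either direction. The stretches of Ercc8 and Atm, each with 1 CCAAT box, are not printed, although Ercc8 also differed from its neighbour Ndufaf2 (-2.23, log2 per kb).

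Pms2 (mismatch repair) and Aimp2, chr5:143909848-143909900, plus strand: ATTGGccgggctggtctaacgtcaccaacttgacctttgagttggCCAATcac
Rad1 (checkpoint clamp) and Brix1, chr15:10485948-10486017, plus strand: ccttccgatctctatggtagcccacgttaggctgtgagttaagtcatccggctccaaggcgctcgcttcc
Rad9b (checkpoint clamp) and Vps29, chr5:122354271-122354327, minus strand: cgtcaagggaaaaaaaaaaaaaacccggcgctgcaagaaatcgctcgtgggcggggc
Pms1 (mismatch repair) and Ormdl1, chr1:53297032-53297094, minus strand: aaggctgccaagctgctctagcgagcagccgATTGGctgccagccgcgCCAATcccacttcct
Rad54l (recombination) and Pomgnt1, chr4:116123701-116123839, minus strand: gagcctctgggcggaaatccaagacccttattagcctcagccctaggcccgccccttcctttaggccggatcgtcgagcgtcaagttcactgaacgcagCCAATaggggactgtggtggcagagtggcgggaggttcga
Brca1 (recombination) and Nbr1, chr11:101551956-101552106, minus strand: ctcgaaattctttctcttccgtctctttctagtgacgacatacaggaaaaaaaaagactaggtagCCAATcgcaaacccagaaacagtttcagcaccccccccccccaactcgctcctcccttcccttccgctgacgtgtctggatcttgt
Rad51c (recombination) and Tex14, chr11:87404955-87405012, minus strand: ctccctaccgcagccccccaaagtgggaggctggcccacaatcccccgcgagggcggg

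The Pms2 and Pms1 stretches, 53 and 63 bases long, each hold 2 CCAAT boxes in opposite orientations. The Rad54l and Brca1 stretches, 139 and 151 bases long, each hold 1, and those of Rad1, Rad9b and Rad51c, 70, 57 and 58 bases long, hold no match to any of the 5 motifs searched. The G and C content of the 7 stretches ran from 50.3% (Brca1) to 74.1% (Rad51c).

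The repair gene was the lower of the pair per kb in 15 of the 21 arrangements, a share not computed for all head-to-head genes. The median of all 71 members was itself 4.36 CPM per kb, beside 8.42 for genes averaging at least 10 counts. These ratios use merged exons and were not repeated with another length. Pms2, with 73, 81 and 107 reads in replicates 1, 2 and 3, stood at a log2 difference of -4.27 ± 0.20 per kb (SD, n = 3) against Aimp2, a scaffold of the tRNA synthetase complex, which had 324, 331 and 361 reads. This was the lowest of the 21 values. Prkdc followed at -4.12 ± 0.25 against the replication helicase gene Mcm4. Rad1 was at -3.37 ± 0.17 against Brix1, a ribosome biogenesis gene, and Rad9b at -2.86 ± 0.12 against Vps29, a retromer subunit gene whose counts, like those of Rad9b, were fractional. Brca1 (557, 614 and 579 reads) was at -1.25 ± 0.07 against the autophagy receptor gene Nbr1 (1121, 1122 and 1115 reads).

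In 6 arrangements the repair gene was the higher. Rad51c, a recombination gene with 131, 146 and 132 reads, was at 3.25 ± 0.17 (log2 difference per kb) against Tex14, a germ cell gene with 17, 15 and 16 reads. Xrcc1 was at 4.67 ± 0.37 against Pinlyp, which had 9 reads in all. Parp2 (179, 213 and 240 reads) was at least 109-fold higher per kb than Ccnb1ip1, a meiotic gene with 0 reads, counted at 3 reads over the group.

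In 4 of the 21 arrangements the genes stood within a factor of 2 of each other, such as the kinase gene Atm against the histone gene regulator Npat (-0.69 ± 0.09, log2 per kb). In reads alone Atm, with 1063, was slightly above Npat, with 1033.

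**Figure D2:**
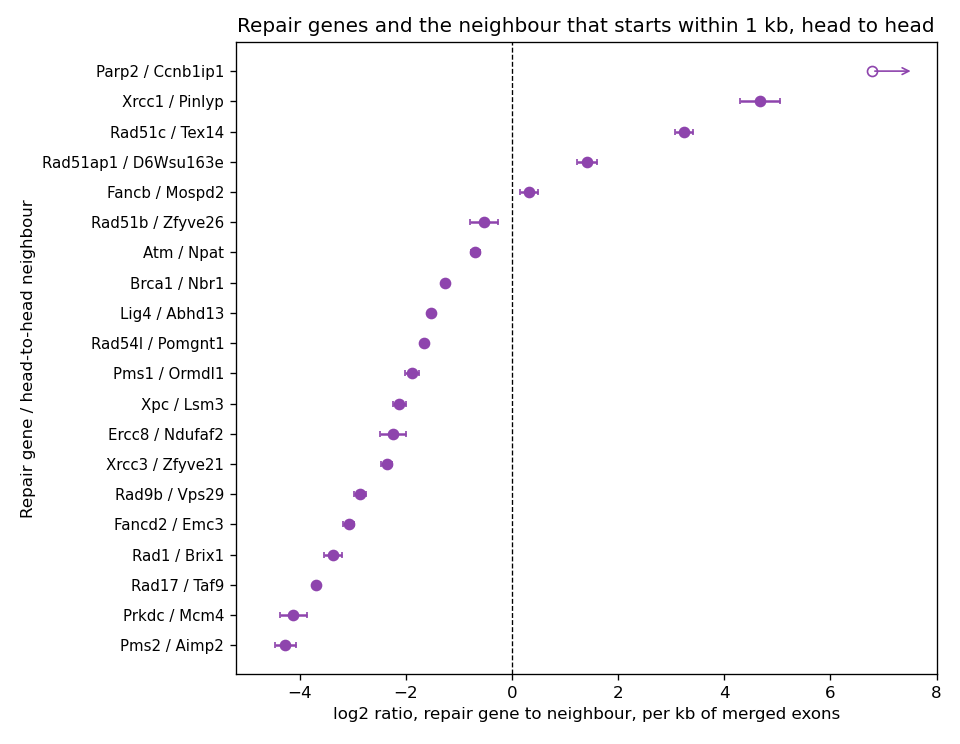
Log2 ratio of 20 repair genes to the gene that starts head to head with it, per kb of merged exons; points are means and bars are SD over the 3 libraries, and the open point with an arrow is a lower bound. The values run from -4.27 (Pms2 against Aimp2) to 4.67 (Xrcc1 against Pinlyp), with 15 of 20 under 0 and the lower bound, for Parp2 against Ccnb1ip1, at 6.77.

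In the windows of 54 members and of 27025 genes, 5 promoter motifs were searched on both strands. The E2F-type letters TTTCCCGC, TTTGGCGC or TTTCGCGC stood in 7 members (13.0%), against 2.12% of all genes. Among those averaging at least 10 counts they stood in 6 of 49 members (12.2%), against 4.39% of genes. E2F factors drive genes of the S phase. The 7 members were Brca2, Fancg, Msh3, Msh5, Msh6, Rad51c and Xrcc6. The example from Brca2, which lies upstream of the gene and outside exons at chr5:150522437-150522477, plus strand, has the match in capitals, in reverse orientation.

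Brca2 (recombination), E2F-type match: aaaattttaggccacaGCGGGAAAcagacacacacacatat

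CCAAT stood in 30 members (55.6%), against 41.1% of all genes and 43.8% of genes averaging at least 10 counts. The E-box CACGTG was found in 6 members (11.1%, against 8.09% and 12.1%) and the ETS-type letters CCGGAAGT in 4 (7.41%, against 4.31% and 10.2%). The NRF1-type letters GCGCATGCG were found in 4 (7.41%, against 1.95% and 4.60%). Of the 49 members averaging at least 10 counts, CCAAT stood in 57.1%, the E-box in 12.2%, and the ETS-type and NRF1-type letters in 8.16% each. A match is a run of letters in the window, not a measured binding site.

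Nucleotide excision repair was led by a pair of lesion recognition genes. Ddb1, an adaptor of a ubiquitin ligase that also serves many targets other than DNA lesions, had 7643, 7519 and 7641 reads (126 ± 1.56 CPM per kb, SD, n = 3) and ranked 341 among 16839 genes with a length. Rad23b, which stabilises the damage sensor Xpc, had 4957, 5022 and 5032 reads (92.8 ± 0.363 CPM per kb). Together Ddb1 and Rad23b held 80.3% of the reads of the 13 excision genes.

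The other extreme of this group was just as clear. Ddb2 (chromosome 2, 91211572 to 91236982, minus strand) gave 4 reads against 22803 for Ddb1 (chromosome 19, 10605327 to 10629819, plus strand), although the products of both form 1 ultraviolet damage sensor. Ddb2 was 0.0175% of the reads of the pair (exact Clopper-Pearson 95% interval 0.00478% to 0.0449%). Ercc8, which senses lesions that stall transcription, was the next lowest with 69, 85 and 69 reads (1.03 ± 0.126 CPM per kb).

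The other excision genes stood between these ends. Ercc3, a helicase of the transcription factor TFIIH, was at 19.5 ± 0.560 CPM per kb, and Ercc5, Xpa, Xpc and Ercc6 ranged from 6.34 (Ercc5, an endonuclease) to 2.99 (Ercc6, the partner of Ercc8 in sensing stalled transcription). Ercc2, the second TFIIH helicase, had 264, 181 and 208 reads (5.55 ± 1.11 CPM per kb), highest in replicate 1.

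Partners within this group differed in level. Each of the 8 pairs compared in this and the following groups was called different by limma on the ratio within each library, and the intervals (95%) and adjusted p-values given come from a fit on the spread of each gene alone. Ercc1, with 115, 114 and 135 reads, and Ercc4, with 199, 168 and 174, encode the 2 subunits of an endonuclease that cuts on the upstream side of the lesion.

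Ercc4 had more reads in each library, but Ercc1 has the shorter exons, and per kb Ercc1 was the higher by 0.54 (log2, interval 0.31 to 0.78, limma adjusted p = 5.80e-04). This difference was -0.57 in reads alone and 1.33 with the longest transcript as length. Ddb2 against Ddb1 was at -11.20 (log2 per kb, interval -12.63 to -9.77). Over all genes tested against the same partner by the ratio within each library, 95.1% differed from Ercc4 and 99.7% from Ddb1, so a difference from a partner was the usual outcome for any gene.

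The mismatch repair genes covered a wide range. Msh6, a mismatch recognition subunit, was highest. It had 1075, 1126 and 1066 reads (26.6 ± 0.745 CPM per kb). Msh3, which replaces Msh6 in the complex for larger loops, had 143, 125 and 132 reads (1.26 ± 0.0911 CPM per kb).

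Among the MutL genes, whose products act after recognition, Mlh3 had 291, 285 and 301 reads (4.11 ± 0.114 CPM per kb). Pms1 had 165, 160 and 155 reads (2.26 ± 0.0790 CPM per kb). Pms2, which carries the nicking activity in mismatch repair, was the lowest of the MutL genes at 1.14 ± 0.230 CPM per kb.

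Msh4 and Msh5, whose known work is in meiosis rather than in mismatch correction, were the lowest genes of this group at 0.00517 ± 0.00895 and 0.154 ± 0.134 CPM per kb. The highest of their 6 library values, 15 reads of Msh5, was far below the lowest of Msh6, 1066 reads.

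The end joining genes were led by the Ku subunits, which bind broken ends. Xrcc5 (Ku80) had 666, 692 and 728 reads (28.9 ± 1.20 CPM per kb) and Xrcc6 (Ku70) had 417, 406 and 471 (10.2 ± 0.813 CPM per kb). Although the Ku proteins work as a dimer of both, Xrcc6 was 2.83 times lower per kb (log2 difference -1.50, interval -1.63 to -1.36, limma adjusted p = 1.15e-09, with 98.1% of all genes differing from Xrcc5), and it was at -0.69 in reads alone.

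The later steps of end joining stood lower. Lig4, the ligase of this route, had 163, 156 and 166 reads (3.30 ± 0.110 CPM per kb). Its cofactor Xrcc4 had 77, 90 and 74 (2.03 ± 0.211 CPM per kb), which is 1.63 times lower than Lig4 (log2 difference -0.70, interval -0.97 to -0.44, limma adjusted p = 1.72e-04, with 96.1% of all genes differing from Lig4). Prkdc, the kinase recruited by Ku, had 219, 244 and 203 reads over its long exons (1.79 ± 0.165 CPM per kb), the lowest level of the 5.

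In homologous recombination the highest members were Rad50, a subunit of the complex that binds and trims broken ends, and Rad51ap1, a cofactor of strand exchange. Rad50 had 606, 612 and 520 reads (11.5 ± 1.04 CPM per kb), lowest in replicate 3, and Rad51ap1 had 428, 474 and 464 (10.1 ± 0.491 CPM per kb).

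At the lower end of recombination stood both mediators of strand exchange. Brca2, the main mediator in mammals, had 191, 177 and 186 reads (1.44 ± 0.0606 CPM per kb), and Rad52 had 80, 84 and 95 (1.60 ± 0.139 CPM per kb). Brca1, which promotes end trimming and brings in Brca2, stood at 7.27 ± 0.332 CPM per kb, 5.04 times higher than Brca2 (log2 difference 2.33, interval 2.17 to 2.49, limma adjusted p = 1.05e-10). Of all genes, 96.8% differed from Brca2, and Brca1 was at 1.66 in reads alone.

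Other recombination genes ranged from 7.81 CPM per kb for Rad51d to 1.92 for Rad51b. Between them lay the translocase genes Rad54l and Rad54b, and Xrcc2, Rad51c and Xrcc3. Each of the 13 genes was above 1 CPM in the edgeR test, in contrast to the meiotic recombinase Dmc1, which is no member and had 1, 2 and 1 reads.

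The Fanconi genes spanned the narrowest range of the role groups of 5 or more. Their 10 levels ran from 5.79 ± 0.246 CPM per kb for Fanci to 1.96 ± 0.107 for Fancc, and each was above 1 CPM and below the median of genes averaging at least 10 counts. Against the median over all genes with a count, Fanci was called above (log2 0.23, limma adjusted p = 0.0012), and Fanca, Fancb, Fancd2 and Fance were not separated from it. Fanci had 302, 311 and 330 reads, and Fancd2, the other subunit of the clamp that is ubiquitinated at a crosslink, had 365, 401 and 353 (4.995 ± 0.327 CPM per kb).

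The core complex genes ran from about the level of the clamp genes down to the lowest levels of the group. Fancb, a scaffold subunit of the core complex on chromosome X, had 132, 138 and 160 reads (5.11 ± 0.512 CPM per kb). Fancm, the translocase that anchors the complex, had 214, 203 and 188 (2.05 ± 0.140 CPM per kb), and Fancc had 159, 159 and 145. The other 5 core genes, Fance, Fanca, Fancg, Fancl (the ubiquitin ligase) and Fancf, ranged from 5.02 to 3.52 CPM per kb.

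Fancd2 and Fanci differed least of the 8 pairs, by -0.21 (log2 per kb, interval -0.36 to -0.06, limma adjusted p = 0.0113), with 95.9% of all genes differing from Fanci. The difference was -0.0015 and not called with the longest transcript as length, and 0.25 in reads alone. The counts of both were fractional, and 16.0% of the exon bases of Fanci overlap Polg.

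Among the members, base excision and single-strand break repair had the highest median of the role groups. The 14 further genes of this route outside the name pattern had a median of only 4.52 ± 0.275 CPM per kb. Parp1, the sensor that marks nicks with poly(ADP-ribose), had 1671, 1708 and 1825 reads (34.8 ± 1.52 CPM per kb). Ogg1, the glycosylase for oxidised guanine, had 437, 446 and 431 (21.3 ± 0.361 CPM per kb), and Ung, the glycosylase for uracil, was lowest with 163, 160 and 210 (3.45 ± 0.539 CPM per kb). The scaffold gene Xrcc1 (10.9 CPM per kb) and the ligase gene Lig3 (7.58), whose products bind each other, lay between them.

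The poly(ADP-ribose) polymerases were of unequal level. Parp2 had 179, 213 and 240 reads (6.17 ± 0.874 CPM per kb) and Parp3 had 348, 352 and 387 (10.4 ± 0.593 CPM per kb). Per kb, Parp2 was 5.67 times lower than Parp1 (log2 difference -2.50, interval -2.69 to -2.32, limma adjusted p = 1.91e-10) and Parp3 3.34 times lower (-1.74, interval -1.86 to -1.62, limma adjusted p = 1.39e-10), with 98.2% of all genes differing from Parp1. Both stood under Parp1 in all 3 libraries. The level of Parp3 is also the median of this group in each library, and its placement in another route was not tried.

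**Figure D3:**
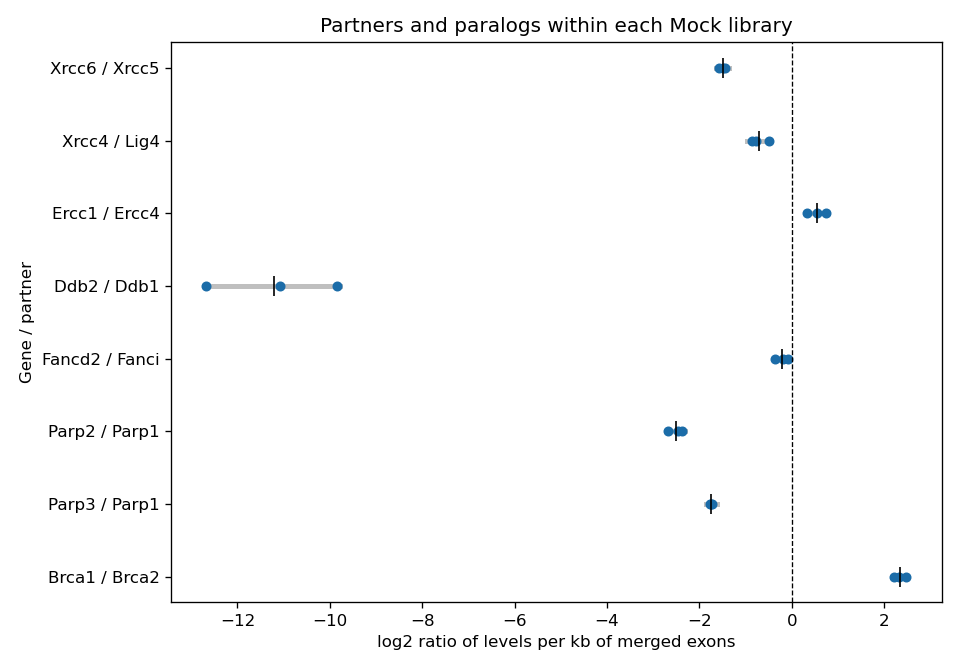
Log2 ratio per kb of merged exons in 8 pairs of repair partners or paralogs; points are the 3 libraries, ticks their means, and grey bars 95% intervals from the spread of each gene. Ercc1 to Ercc4 and Brca1 to Brca2 lie above 0, the other 6 below, and Ddb2 to Ddb1 is the farthest at -11.20.

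In damage signalling and tolerance Rad9a stood apart. It encodes a subunit of the checkpoint clamp and had 493, 469 and 484 reads (21.7 ± 0.628 CPM per kb), while its paralog Rad9b had 50, 53 and 57 (1.31 ± 0.0820 CPM per kb). The counts of both were fractional. Rad1, a further clamp subunit, and the clamp loader gene Rad17 were at 4.04 and 4.34 CPM per kb. Rad18, a ubiquitin ligase for lesion bypass, had 261, 246 and 236 reads (4.54 ± 0.249 CPM per kb).

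The genes of the apical kinases were lower than that clamp subunit per kb. Atm, which answers breaks, was at 3.64 ± 0.270 CPM per kb, and Atr, which answers stalled forks, had 344, 331 and 351 reads (1.54 ± 0.0477 CPM per kb). The merged exons of Atr span 23629 bases, of which the longest transcript holds 8102, so its level per kb rests on the length used.

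Among the 6 members not assigned to a role group, Rad21, a cohesin subunit that holds sister chromatids together, was the third highest of all members per kb. It had 2504, 2552 and 2522 reads (63.4 ± 0.408 CPM per kb). Ercc6l, a mitotic translocase, had 494, 474 and 520 (9.94 ± 0.463 CPM per kb). Rad54l2 and Ercc6l2 were at 4.04 and 1.78 CPM per kb, and Rad21l and Fancd2os were the low genes given above.

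Within nucleotide excision, mismatch repair, end joining and recombination the members spread more widely than the 4 medians differed. The median level was 5.87, 4.86 and 5.29 CPM per kb in replicates 1, 2 and 3 for nucleotide excision, and 5.06, 4.53 and 4.70 for recombination, so excision was the higher in each library, while the ranges over the libraries overlapped. End joining stood lower, at 3.35, 3.18 and 3.38, and mismatch repair lowest, at 2.34, 2.25 and 2.18, without overlap with the others. Members are not replicates of a route, and no test was made of these medians. The order is that of the members caught by the name pattern. Further genes of the same routes, described below, had other medians. These were 9.60 CPM per kb for nucleotide excision (12 genes), 20.1 for mismatch repair (5), 3.29 for end joining (9) and 4.01 for recombination (14). The 5 mismatch genes were Pcna (186 CPM per kb), Rpa1 (48.5), Rfc1 (20.1), Pold1 (11.0) and Exo1 (4.89). Pcna also serves replication, so the value of 20.1 is not a level of mismatch repair alone.

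The order of the lower routes rested on the length used and on the meiotic genes. With the longest transcript as length the medians were 8.69 ± 0.479 CPM per kb for nucleotide excision, 8.20 ± 0.376 for recombination, 5.53 ± 0.154 for mismatch repair and 3.42 ± 0.114 for end joining, which puts mismatch repair above end joining. Without Msh4 and Msh5, the mismatch median was 4.11 ± 0.114 CPM per kb of merged exons, also above end joining. Without Ddb1 and Rad23b the excision median was 4.45 ± 0.254, under the 4.76 ± 0.270 of recombination, at 4.16, 4.60 and 4.60 in replicates 1, 2 and 3. It was then the lower in replicates 1 and 3 and the higher in replicate 2.

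For the other routes the median was 10.4 ± 0.593 CPM per kb in base excision and single-strand break repair, 4.42 ± 0.0341 in the Fanconi group and 4.01 ± 0.212 in signalling and tolerance. With the longest transcript these were 13.0, 5.32 and 6.91, beside 11.5 for all genes averaging at least 10 counts. Of all reads of the 71 members, 106806 in number and 0.378% of the libraries, nucleotide excision held 44.1%, base excision 11.4%, recombination 10.7%, mismatch 7.28%, signalling 5.87%, the Fanconi group 5.77% and end joining 4.47%. These shares are of reads and favour long genes.

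**Figure D4:**
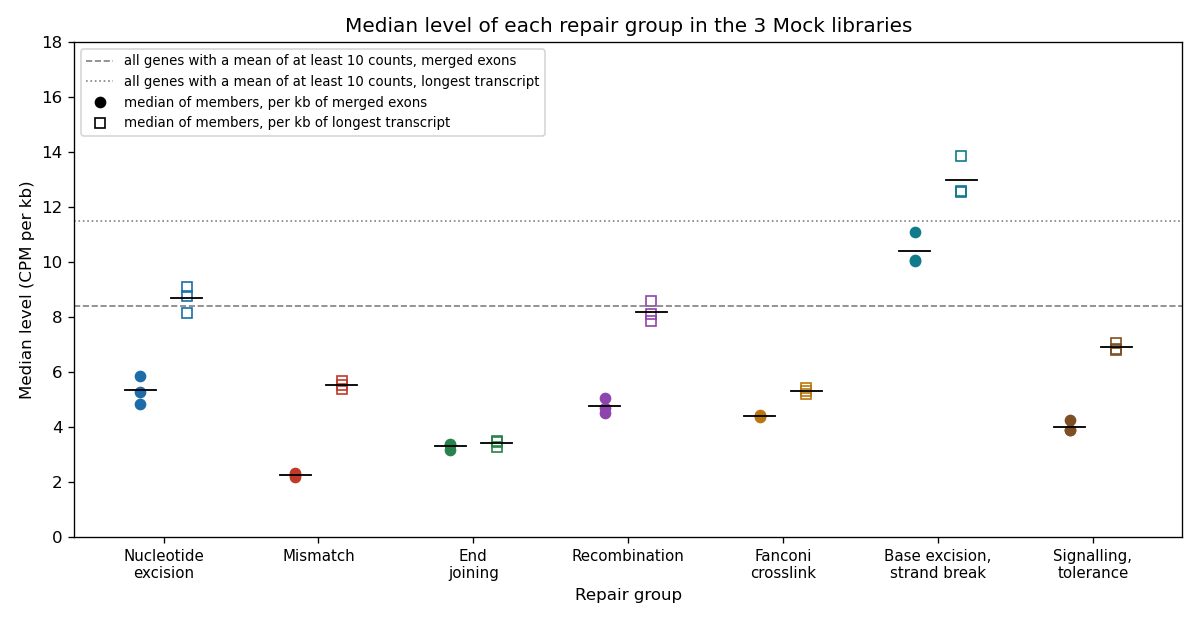
Median level of each role group in CPM per kb, 1 point per library, with the mean as a bar; filled circles use merged exons and open squares the longest transcript, and the dashed and dotted lines are the medians of all genes averaging at least 10 counts on the same lengths (8.42 and 11.5). Base excision and single-strand break repair is highest on both lengths, and mismatch repair and end joining change places.

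Few repair genes differed between the 3 libraries. The median coefficient of variation of the 65 members above 1 CPM was 6.02%, and their range over the libraries ran from 0.01 (Rad23b) to 0.55 (Ercc2) on the log2 scale. By a Poisson deviance test 1 of the 65 members varied beyond counting error (1.54%), against 3.31% of the 11000 genes averaging at least 10 counts. At an unadjusted p under 0.05 there were 7 members (10.8%), against 14.9% of all genes.

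The member that varied was Ercc2 (264, 181 and 208 reads, adjusted p = 0.0109 by the Poisson deviance test over all genes). The call was lost without replicate 1 (adjusted p = 0.691) or replicate 2 (0.157). Of its exon bases 42.7% overlap those of Gm26852, and its counts were fractional. The other 6 at an unadjusted p under 0.05 were Rad50, Parp2, Ung, Rad54l2, Pms2 and Parp1, and they did not pass the adjusted test.

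**Figure D5:**
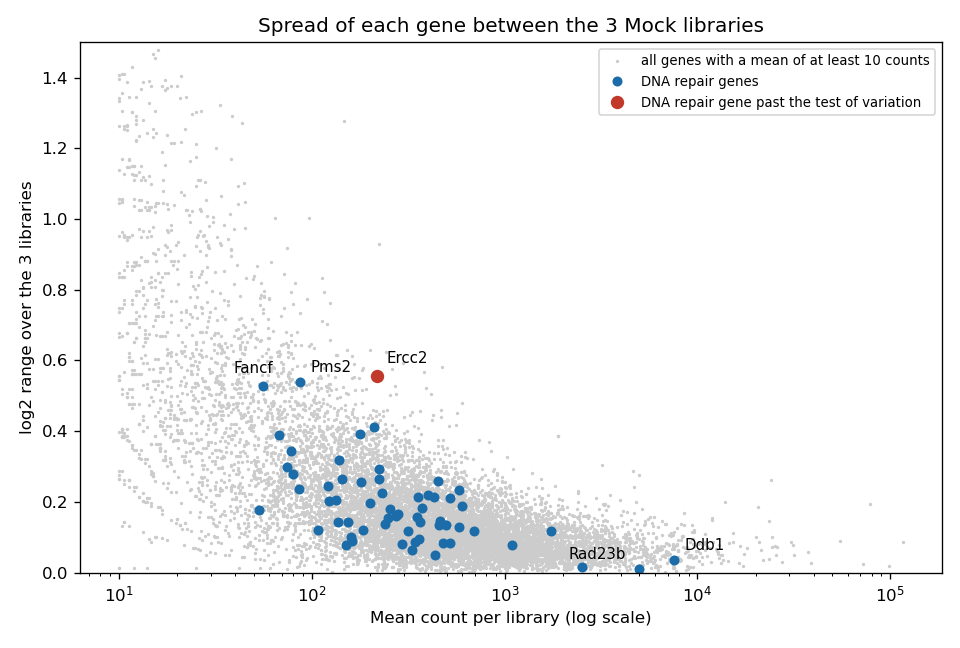
Range over the 3 libraries (log2) against the mean count per library (log scale) for all genes averaging at least 10 counts (grey) and 61 of the 65 repair genes among them (blue); 66 genes above a range of 1.5, none of them repair genes, lie outside the plot. Ercc2 (red) has the widest range of the repair genes at 0.55, and Rad23b the narrowest at 0.01.

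The rest of the repair machinery, from a list of 81 further genes of which 80 are in the table, was also largely transcribed. Of these 79 were above 1 CPM and 1, Dmc1, was below, against 74.3% and 20.2% of all genes with a count. Per kb, 28 were above the median gene and 47 below. These are 35% and 58.8% of the 80, beside 36.7% and 59.6% of all genes with a count. Of the 80, 79 averaged at least 10 counts, and among all such genes 47.6% were above and 47.6% below. The highest per list were Pcna, the sliding clamp of replication and mismatch repair (186 ± 4.70 CPM per kb), the recombination cofactor Sfr1 (131 ± 2.72), the TFIIH subunit gene Gtf2h1 (87.2 ± 2.61) and the endonuclease gene Apex1 (83.1 ± 2.79). Usp1, which removes ubiquitin from Fancd2, was at 69.7 ± 3.52, the end joining polymerase gene Poll at 7.80 ± 0.712 and the checkpoint scaffold gene Topbp1 at 11.2 ± 0.242.

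The lowest of each list were Fan1 (0.917 ± 0.145 CPM per kb), a crosslink nuclease, the polymerase gene Polq (1.25 ± 0.0801), the ubiquitin ligase gene Rnf8 (1.51 ± 0.135) and the glycosylase gene Neil3 (1.53 ± 0.186). Uvssa, a factor for stalled transcription, was at 2.20 ± 0.212, and the exonuclease gene Exo1 at 4.89 ± 0.116. For direct reversal, where Mgmt had no read, the alkyl demethylase genes Alkbh3 and Alkbh2 were at 12.3 ± 0.259 and 10.5 ± 0.542 CPM per kb, both above the median gene. In 17 of the 71 members some counts were fractional, beside 2270 of the 17285 genes in the table. Exon overlap with another gene reached at least 10% of the exon bases in 14 members, a share not computed for all genes. Both held for 11 members, and how reads were divided between genes was not tested.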

How the data were processed

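RNA of 3 Mock libraries was analysed. The authors' deposited table holds estimated counts per gene, not normalized; GRCm38.p6 was the build, per the submitters' processing notes. Not given in the sources used here are the aligner, counter, annotation and strand use, so overlapping and antisense genes can share reads. Counts were rounded, and positions and exon lengths were taken by symbol from GENCODE M21. Levels were tested against 1 CPM with edgeR 4.0.16 (quasi-likelihood, TMM) over 14408 genes with a count. Levels per kb, log2((count + 0.5) per kb) within a library, were tested against the library median over genes averaging at least 10 counts, or against a partner, with limma 3.58.1. Variation between libraries was tested with a Poisson deviance test. All p-values were two-sided, or upper-tail for the deviance, and adjusted by Benjamini-Hochberg over all genes tested. Pair intervals and p-values use the spread of each gene, a fit added after seeing the data. The fits were also run on counts simulated from Poisson and negative binomial models, which cannot show that they hold for these data. DESeq2 1.42.0 and R 4.3.3 served the alternatives. Members and lists were chosen with earlier results of these data known. Reads per library are given for the 2 highest and 2 lowest counted members per kb of each role group of 5 or more, for pair genes, for members not above 1 CPM or varying, and for smaller groups. Other members are given by range. Rad51ap2 was not analysed here, and some members and pairs are not reported here by name.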

Additional observations from a re-analysis of the deposited data

How the results depend on the processing

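Samples could not be paired between groups because the labels give 1 group. Partner genes were compared within each library, but the pair intervals and p-values given combine the separate spreads of the 2 genes. Members above 1 CPM numbered 65 under every setting tried. Members below it numbered 0 with a filter of a mean of at least 10 counts, which removes them, 0 with the DESeq2 Wald test (0 genes of the table also at an unadjusted p under 0.05), and 2 to 4 with 1 replicate left out. Members above the library median numbered 26 with the median over all genes with a count, which turned, among others, Brca1 (0.56), Ercc2 (0.16), Ercc5 (0.37), Fancb (0.053), Fancd2 (0.020), Fance (0.031), Fanci (0.23), Lig3 (0.62), Parp2 (0.32), Rad54l (0.38) and Xpa (0.30) positive, and 17 with any replicate left out. With the longest transcript, Ercc6l (-0.21) and Rad17 (0.088) changed sign. Varying members numbered 2 over all genes with at least 1 count (Ercc2 and Msh5), and 0 to 1 with 1 replicate left out. Fancd2 to Fanci was -0.0015 with the longest transcript and -0.21, not called, without a variance trend in limma. In reads alone Ercc1 to Ercc4 (-0.57) and Fancd2 to Fanci (0.25) changed sign. Left-out replicates kept every pair's direction, with Ddb2 to Ddb1 widest at -11.88 to -10.46. Group medians moved with the longest transcript to 8.69 (nucleotide excision), 5.53 (mismatch), 3.42 (end joining), 8.20 (recombination), 5.32 (Fanconi), 13.0 (base excision) and 6.91 (signalling) CPM per kb. In CPM without length they were 26.3, 17.0, 23.6, 26.1, 16.6, 46.6 and 34.6. Mismatch was 4.11 for members with a mean of at least 10 counts, and 3.18 without fractional counts, where Fanconi was 3.70. The depth limits most the 6 lowest members, whose levels rest on 24 reads or fewer. It also limits the variation test at higher counts. Fancf, with 168 reads, had a log2 range of 0.53 and was not called (Poisson deviance test, adjusted p = 0.529).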
